A study of Mus musculus with 8 samples.

Results

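The 3 Runx genes of the mouse, *Runx1*, *Runx2* and *Runx3*, and *Cbfb*, the gene of their shared partner, were followed in the cervical loop (CL) of the incisor, the growth end of the tooth. They were taken by name and are 4 of the 23358 genes in the table of RPKM values (reads scaled by gene length and by the library's total). Incisors came from 4-week-old C57BL/6 mice of both sexes, which were not kept apart, and each of the 4 groups had 2 libraries made from pooled tissue. *Med1* cKO mice carried *Med1* fl/fl, in which exons 8 to 10 are floxed, and the Krt14-Cre transgene, and Ctrl mice were littermates without Cre. *Med1* encodes a subunit of the Mediator complex, and the *Krt14* promoter is active in basal epithelial cells, so that the deletion is aimed at epithelium and not at mesenchyme. The head of the loop (CLH) holds dental epithelial stem cells, and the tail (CLT) holds their progeny.

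Runx proteins bind DNA through the Runt domain, and CBFβ binds that domain rather than the DNA and strengthens the contact. The same complex can activate or repress a gene, depending on which other proteins it recruits. *Runx1* is best known from blood formation and is also active in hair follicle and incisor epithelium. *Runx2* is required for osteoblasts and for tooth development. *Runx3* is best known from T cells, sensory neurons and cartilage.

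The Runx recognition sequence, TGTGGT on one strand and its complement on the other, stands in the far upstream promoter of each Runx gene, and the sites are printed to show what these 3 genes share. They were read from RefSeq windows of 250 bases before to 50 bases after a start site (GRCm38.p6, the assembly of mm10), which matched all 4 genes with 6 windows. Each site is given 5′ to 3′ on the strand of its gene, with the matched letters in capitals.
Runx1: cataaacAACCACAGAACCACAagttggg
Runx2: cacaaacAACCACAGAACCACAagtgcgg
Runx3: gtccctcAACCACAGAACCACAaggccag
The *Runx1* site lies at chr16:92826026-92826054 on the minus strand, with its first capital at base 28 counting the start site as base 1. The *Runx2* site lies at chr17:44814584-44814612 on the minus strand, with its first capital at base 23. The *Runx3* site lies at chr4:135120503-135120531 on the plus strand, with its first capital 135 bases before the start. The capitals spell 2 Runx sequences separated by 1 base, AACCACAGAACCACA, a motif chosen after the windows had been read. On either strand it occurred in 4 of 32851 windows (0.0122%): those of the 3 Runx genes and that of Gm16225, which overlaps the *Runx3* window. TGTGGT alone occurred in 16.8% of all windows and its longer form TGTGGTT in 5.27%. Neither occurred in the *Cbfb* window or in the second windows of *Runx1* and *Runx3*. These are matches of letters, not measured binding.

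Totals behind the RPKM values ran from 26591612 to 34420181 reads, of which 82.2% to 85.6% lay on genes. The reads behind the Runx genes and *Cbfb* ran from 100 (*Runx3*, cKO CLT 2) to 5249 (*Cbfb*, cKO CLH 1). The median gene differed between replicates by 0.404 in Ctrl CLT (absolute difference of log2(RPKM + 1)), but by 0.092 to 0.113 in each of the other groups. *Med1*, the deleted gene, had 7.71 and 9.12 RPKM in Ctrl CLH, against 7.10 and 7.03 in the libraries labelled cKO CLH. In CLT it had 4.83 and 8.71 RPKM in Ctrl, against 9.15 and 8.96 in the libraries labelled cKO. Its level was thus lower in cKO CLH, by 0.22 on the log2 scale (SE 0.11, adjusted p = 0.71), and higher in cKO CLT, by 0.42 (SE 0.30, adjusted p = 0.36). Reads outside the floxed exons count toward these values, so the gene level does not check the deletion, and directions below are between the libraries as labelled.

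The labels call the material dental epithelial cells, but the libraries also held RNA of other tissues. Summed over 7 osteoblast and odontoblast markers, the level was 2151 to 3131 RPKM in the 6 libraries other than cKO CLT. It was 378 and 473 RPKM in cKO CLT, of which *Col1a1* alone made 376 and 472. Each other marker of that list was at most 0.686 RPKM there. Summed levels of 6 skeletal muscle markers were 17.1 to 21.7 RPKM in CLH, 465 and 30.8 in Ctrl CLT 1 and 2, and 1282 and 1479 in cKO CLT. Those of 4 epidermis markers were 5.12 to 13.5 RPKM in CLH, 219 and 3.69 in Ctrl CLT against 659 and 670 in cKO CLT. In these bulk samples, fewer cells of a type and less RNA per cell cannot be told apart, and the part of such markers in the results on the Runx genes was not tested.

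**Figure D1:**
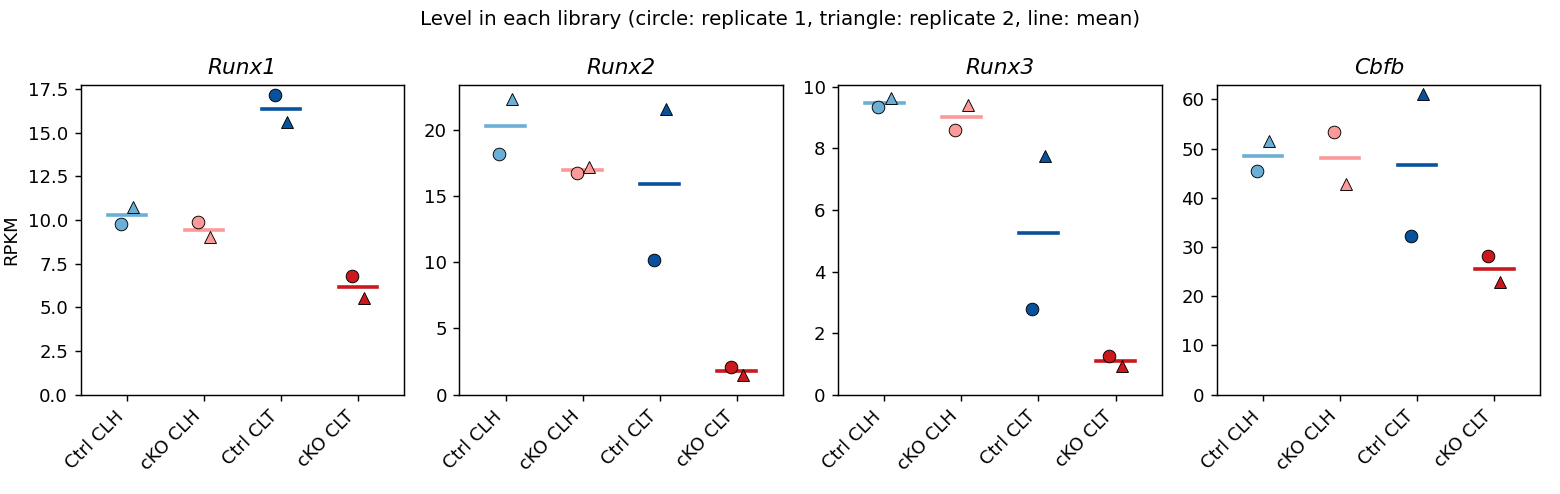
RPKM of each gene (vertical axis, from 0) in the 8 libraries by group (horizontal axis), 1 point per library with a bar at the group mean. The 2 cKO CLT libraries lie lowest for all 4 genes, and *Runx1* is the gene for which both Ctrl CLT libraries lie above all others.

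*Runx1* had its highest levels in Ctrl CLT and its lowest in cKO CLT. In CLH its RPKM was 9.79 and 10.8 for Ctrl and 9.89 and 9.02 for cKO. In CLT it was 17.2 and 15.6 for Ctrl and 6.82 and 5.52 for cKO. The order of the group means was Ctrl CLT, Ctrl CLH, cKO CLH and cKO CLT, and only the CLH groups overlapped. The gene lies at chr16:92601466-92826066 (mm10, counted length 7369 bases).

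*Runx2* RPKM in CLH was 18.2 and 22.3 for Ctrl and 16.8 and 17.2 for cKO. The CLT values were 10.2 and 21.6 for Ctrl and 2.07 and 1.48 for cKO. Of the Ctrl CLT libraries, one lay below CLH and the other within its range, and both cKO CLT libraries lay far below. Among the 14148 genes tested, its mean level stood at percentile 75 in Ctrl CLH and at 17.1 in cKO CLT. The gene lies at chr17:44604001-44814797 (counted length 6928 bases).

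*Runx3*, the Runx gene with the lowest mean level, reached 9.33 and 9.63 RPKM in CLH of Ctrl and 8.60 and 9.42 in CLH of cKO. Its CLT values were 2.77 and 7.75 RPKM for Ctrl and 1.26 and 0.942 for cKO. Its order was CLH of both genotypes, which overlapped, then Ctrl CLT, then cKO CLT. The gene lies at chr4:135120645-135177990 (counted length 3891 bases).

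*Cbfb* had the highest level per length of the 4 genes in every library. It had 45.5 and 51.6 RPKM for Ctrl and 53.4 and 42.8 for cKO in CLH. In CLT it had 32.3 and 61.0 for Ctrl and 28.2 and 22.9 for cKO. The 3 groups other than cKO CLT overlapped. The gene lies at chr8:105170674-105217988 (counted length 2913 bases).

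In CLT, which asks how loss of MED1 bears on the progeny cells, all 4 genes were lower in both cKO libraries than in both Ctrl libraries, but none passed the test. *Runx2* had the largest difference, a mean of 1.78 ± 0.423 RPKM in cKO against 15.9 ± 8.08 in Ctrl (SD, n = 2 each), 8.94-fold lower. On the log2(RPKM + 1) scale used for all tests, which understates differences of low genes, this was -2.52 (SE 0.41, limma adjusted p = 0.064). *Runx1* was 2.65-fold lower, at 6.17 ± 0.921 against 16.4 ± 1.10 RPKM (log2 difference -1.28, SE 0.18, adjusted p = 0.060). *Runx3* was 4.79-fold lower, at 1.10 ± 0.222 against 5.26 ± 3.52 RPKM (log2 difference -1.46, SE 0.47, adjusted p = 0.12). *Cbfb* was 1.83-fold lower, at 25.5 ± 3.74 against 46.7 ± 20.3 RPKM (log2 difference -0.78, SE 0.36, adjusted p = 0.20). The 95% interval of the *Cbfb* difference, -1.77 to 0.20, included 0, and those of the 3 Runx genes did not.

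Of all genes tested, 1.75% passed at an adjusted p under 0.05 in CLT, and 35.1% were lower in both cKO libraries than in both Ctrl libraries, so that falling below Ctrl was common. At an unadjusted p under 0.05, the 3 Runx genes were lower by limma, as were 16.4% of all genes. The study had picked out *Runx1* and *Runx2* by MED1 super-enhancers (distal regulatory elements) near them in CLT of control mice. It then reported both as lower in cKO CLT, significantly so by its own test of the RNA-seq values, and also by RT-qPCR. Their direction here comes from the same RNA-seq samples and is not independent evidence. *Runx3* and *Cbfb* had not been picked out in this way. With 2 libraries a group, the smallest p of an exact permutation test is 0.333. Leaving out a Ctrl CLT library leaves that group with 1, which is then assumed to vary like cKO CLT, the group with closely alike replicates. Without Ctrl CLT 1 all 4 genes passed (adjusted p from 6.6e-05 for *Runx2* to 0.0012 for *Runx1*), and without Ctrl CLT 2 the 3 Runx genes passed while *Cbfb* was at -0.33 (adjusted p = 0.11). In those fits 69.5% and 52.1% of all genes passed, so that the counts of 4 and 3 are not particular to these genes. *Runx3* was at -2.06 and -0.85 there. Ctrl CLT 1 lay between Ctrl CLT 2 and cKO CLT for *Runx2*, *Runx3* and *Cbfb*, as it did for the summed muscle and epidermis markers. For *Runx1* it was instead the library farther from cKO CLT.

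In CLH, which holds the stem cells, no gene passed the test and differences were small. *Runx2* was at 17.0 ± 0.306 RPKM in cKO and 20.3 ± 2.93 in Ctrl, the single gene of the 4 with both cKO libraries below both Ctrl libraries, as were 18.8% of all genes (log2 difference -0.24, SE 0.11, adjusted p = 0.70). Its 95% interval was -0.53 to 0.06. *Runx1* differed by -0.11 (95% interval -0.36 to 0.14, adjusted p = 0.77), *Runx3* by -0.07 (SE 0.09, adjusted p = 0.84) and *Cbfb* by -0.02 (SE 0.13, adjusted p = 0.98). The share of all genes passing in CLH was 0%, by limma with 0 genes at an adjusted p under 0.05, 1027 (7.26%) at an unadjusted p under 0.05 and 0 by voom on the reads recovered from the RPKM values. These intervals allow differences in CLH of the size seen for *Runx2*, and they do not show that the genotypes were alike.

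**Figure D2:**
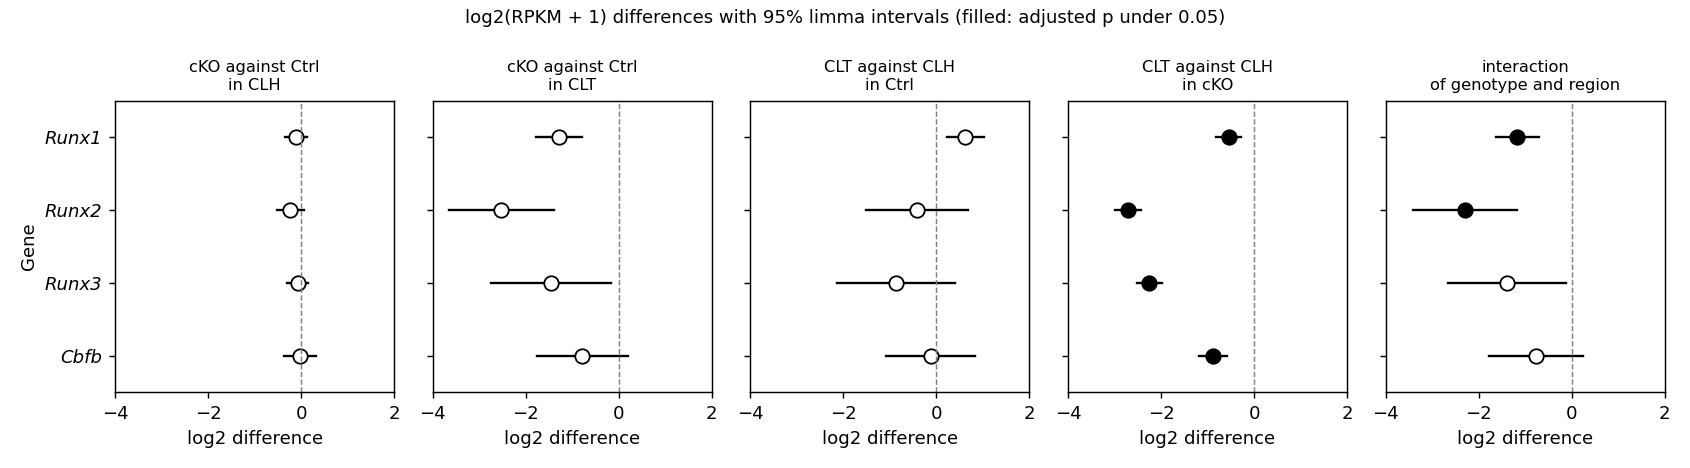
Differences on the log2(RPKM + 1) scale (horizontal axis) for the 4 genes (vertical axis) in 5 comparisons, as points with 95% limma intervals, filled where the adjusted p was under 0.05. No point is filled for cKO against Ctrl in either region or for the regions of Ctrl, all 4 are filled for the regions of cKO, and *Runx1* and *Runx2* are filled for the interaction.

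Between the regions of Ctrl, *Runx1* was the gene with a higher level in CLT. Both Ctrl CLT libraries lay above both Ctrl CLH libraries, by 0.62 (SE 0.14, 95% interval 0.22 to 1.02, adjusted p = 0.32), as for 15.2% of all genes. *Runx3* lay lower in both CLT libraries, by a log2 difference of -0.87 (SE 0.45, adjusted p = 0.47), as for 36.8% of genes. *Runx2* (-0.42, SE 0.39, adjusted p = 0.62) and *Cbfb* (-0.12, SE 0.34, adjusted p = 0.87) overlapped between the regions. None of the 4 passed, and 0.00707% of all genes did, which was 1 gene, *Klk4*. Without Ctrl CLT 2 all 4 passed (*Runx1* 0.69, *Runx2* -0.92, *Runx3* -1.48, *Cbfb* -0.57), in a fit whose spread comes from CLH alone and in which 53.3% of all genes passed. Without Ctrl CLT 1, *Runx2* was at 0.09 and *Cbfb* at 0.33, on the other side of 0. The 7 enamel genes together took 13.3% and 5.72% of gene reads in Ctrl CLT 1 and 2, 1.88% to 2.22% in CLH, and 0.00295% and 0.00222% in cKO CLT. RPKM values are shares of a total, so such genes bear on all others. Scaling by median of ratios moved the median difference of all genes between the Ctrl regions from -0.13 to 0.01, with *Runx1* then at 0.78 and *Cbfb* at 0.05.

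Between the regions of cKO, all 4 genes fell in CLT, as did 45.1% of all genes (74% passed in either direction). *Runx2* fell by 2.70 on the log2 scale (SE 0.12, adjusted p = 2.1e-07) and *Runx3* by 2.26 (SE 0.12, adjusted p = 4.5e-07). *Cbfb* fell by 0.89 (SE 0.13, adjusted p = 0.00036) and *Runx1* by 0.55 (SE 0.12, adjusted p = 0.0028). *Runx1* therefore stood higher in CLT than in CLH in Ctrl and lower in cKO, while *Runx3* stood lower in both genotypes. Without cKO CLT 2 the adjusted p of *Runx1* was 0.052. With median-of-ratios scaling, which moved the median of all genes from -0.18 to 0.02, *Runx1* was at -0.35, *Runx2* at -2.53, *Runx3* at -2.10 and *Cbfb* at -0.67, and all 4 passed.

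The genotype difference in CLT differed from that in CLH for *Runx1* and *Runx2* in a fit over all 8 libraries. That fit assumes 1 spread for all 4 groups. The median gene, however, differed between replicates by 0.404 in Ctrl CLT and by 0.092 to 0.113 in the other groups. The interaction, the CLT difference minus the CLH difference, was -1.17 for *Runx1* (SE 0.19, adjusted p = 0.016) and -2.29 for *Runx2* (SE 0.46, adjusted p = 0.026). It was -1.39 for *Runx3* (SE 0.52, adjusted p = 0.11) and -0.76 for *Cbfb* (SE 0.42, adjusted p = 0.23), and neither passed. Of all genes, 17.6% passed, 9.58% with a lower value. Neither *Runx1* nor *Runx2* passed when any CLH library or any cKO CLT library was left out (adjusted p 0.058 to 0.087 and 0.099 to 0.11), when 1.4% to 1.99% of all genes passed. All 4 passed without Ctrl CLT 1, and the 3 Runx genes without Ctrl CLT 2, with *Runx3* at -1.996 and -0.78, in fits in which 63.1% and 46.6% of all genes passed.

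The makeup of Runx RNA differed between cKO CLT and the other groups. Of the summed Runx RPKM, *Runx2* had the largest share in all 4 CLH libraries, 47.6% to 52.3%, with *Runx1* at 25.2% to 28.1% and *Runx3* at 22.5% to 26.4%. In cKO CLT, *Runx1* had 67.2% and 69.5% and *Runx2* 20.4% and 18.6%. The Ctrl CLT libraries disagreed, with *Runx1* at 57.0% in Ctrl CLT 1 and 34.7% in Ctrl CLT 2. The shares describe which Runx gene was most abundant and not its amount, which fell in cKO CLT for *Runx1* too. The summed Runx level was 35.2 to 42.7 RPKM in CLH, 30.1 and 44.9 in Ctrl CLT against 10.2 and 7.94 in cKO CLT. *Cbfb* RPKM was 1.20 to 1.51 times the summed Runx RPKM in CLH, 1.07 and 1.36 times in Ctrl CLT, and 2.78 and 2.88 times in cKO CLT. The cKO CLT libraries thus held more *Cbfb* per Runx RNA than any other library, a description without a test.

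**Figure D3:**
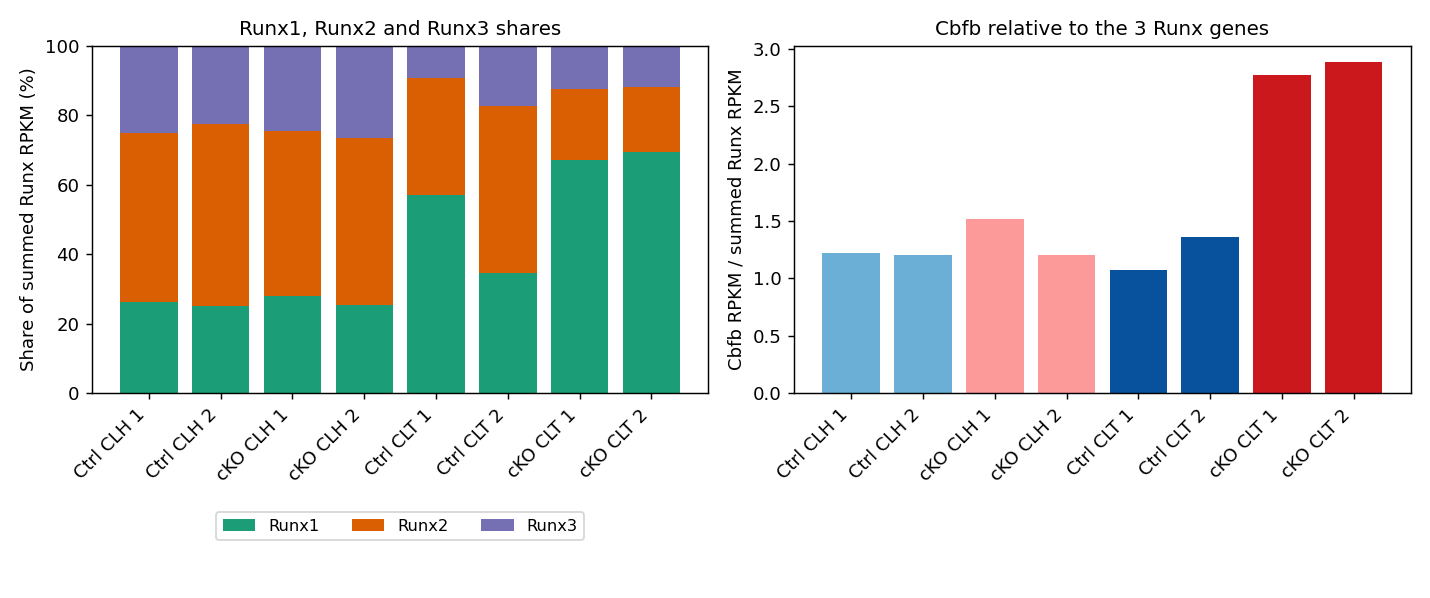
Left, share of summed Runx RPKM (percent) held by each Runx gene in each library as stacked bars. Right, *Cbfb* RPKM divided by summed Runx RPKM in the same libraries. *Runx1* takes most of the bar in Ctrl CLT 1 and in each cKO CLT library. The *Cbfb* ratio is 2.78 and 2.88 in cKO CLT.

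Proteins that act with Runx factors were taken as lists from background knowledge, and in CLH none of the listed genes passed. The 14 corepressors included Groucho proteins (*Tle1* to *Tle4*, and *Aes*), which bind the end of Runx proteins, the ETO family, SIN3A, histone deacetylases and nuclear receptor corepressors. In CLT none passed, 7 were higher and 7 lower in cKO, and their median was 0.03 against -0.01 for all genes. *Tle2*, at 18.2 and 42.6 RPKM in Ctrl CLT against 3.52 and 3.73 in cKO CLT, was the lowest (log2 difference -2.65, adjusted p = 0.064). *Tle3*, at 25.04 and 20.6 against 36.8 and 41.6 RPKM, was the highest (0.76, adjusted p = 0.081). These Groucho genes thus lay on opposite sides of Ctrl. *Aes*, the most abundant corepressor, was at 129 and 130 against 86.8 and 98.3 RPKM (-0.49, adjusted p = 0.11). In cKO, 12 of 14 corepressors passed between the regions, 2 of them higher in CLT (*Tle3* and *Tle4*) and 10 lower, where 74% of all genes passed. The interaction passed for 2 of 14, *Tle2* (-2.74, adjusted p = 0.022) and *Aes* (-0.63, adjusted p = 0.043), beside 17.6% of all genes.

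Of 7 coactivators, none passed in CLT, and their median was 0.10. *Crebbp*, an acetyltransferase, was the highest at 0.36 (adjusted p = 0.20), and *Yap1*, the most abundant, was at 51.8 RPKM in cKO and 41.2 in Ctrl (0.33, adjusted p = 0.18). From CLH to CLT of cKO, 4 of 7 passed (74% of all genes), all lower in CLT, among them *Myst4*, *Ep300* and *Wwtr1*.

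The 8 inhibitors and turnover genes included *Twist1* and *Twist2*, whose products hold back RUNX2, *Hey1* and *Zfp521*, which repress its activity, and ubiquitin ligases that mark Runx proteins for degradation. None passed in CLT, 6 were lower, and their median was -0.62. *Hey1* was the most abundant and the lowest, at 36.1 and 106 RPKM in Ctrl CLT against 2.28 and 2.58 in cKO CLT (-4.20, adjusted p = 0.060). *Zfp521* was at -1.77 (adjusted p = 0.064) and *Smurf2*, the highest, at 0.19 (adjusted p = 0.51). In cKO all 8 passed between the regions, 7 of them lower in CLT, with *Hey1* at -4.56, beside 74% of all genes in either direction and 45.1% lower. For the interaction, 2 of 8 passed, *Hey1* (-4.34, adjusted p = 0.012) and *Zfp521* (-1.77, adjusted p = 0.019), beside 17.6% of all genes.

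In incisor epithelium RUNX1 has been linked to *Stat3*, *Socs3* and the stem cell gene *Lgr5*, and 7 genes of this branch were listed, of which 6 were tested (*Lif* was below the level minimum). None passed in CLT. *Lgr5*, a receptor that marks stem cells in several epithelia, was at 1.69 and 0 RPKM in Ctrl CLT against 7.37 and 6.53 in cKO CLT, and at 0.0987 to 0.233 in CLH (CLT difference 2.27, adjusted p = 0.083). *Stat3* itself was at 26.5 and 22.0 RPKM in Ctrl CLT against 26.8 and 28.1 in cKO CLT (0.18, adjusted p = 0.46). *Lifr*, a receptor chain of the pathway, was the lowest at -0.49 (adjusted p = 0.47). *Cdkn1a*, a cell cycle inhibitor, was the most abundant and was at 247 and 164 RPKM in Ctrl CLT against 199 and 203 in cKO CLT (0.00, SE 0.25, adjusted p = 0.99). In the region comparison of cKO 5 of 6 passed, 3 higher in CLT (*Lgr5*, *Cdkn1a*, *Stat3*) and 2 lower (*Lifr*, *Socs3*), a share near the 74% of all genes.

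**Figure D4:**
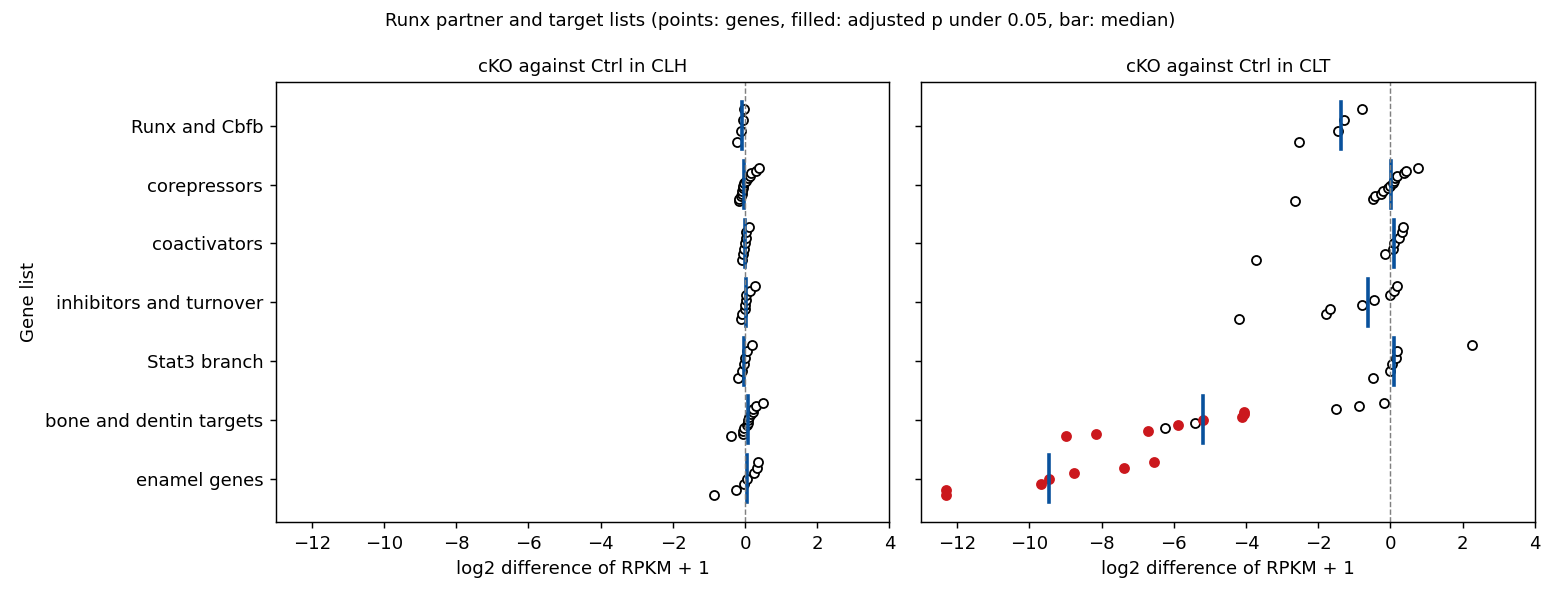
Differences between cKO and Ctrl on the log2(RPKM + 1) scale for each gene of the partner and target lists in CLH and CLT, 1 point per gene, filled where the adjusted p was under 0.05, with a bar at the median of the list. The points of CLH stay near 0, and in CLT the enamel genes and most bone and dentin genes lie far below it.

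Genes that Runx factors are known to control in bone and dentin were lower as a group in cKO CLT. Of 14 listed, 13 were tested, and all 13 were lower, with a median of -5.18 against -0.01 for all genes. The test was passed by 8 of them, where 1.75% of all genes passed. In 12, both cKO libraries lay below both Ctrl libraries, as for 35.1% of all genes. *Sp7*, the osteoblast factor that acts after RUNX2, fell from 29.0 and 63.8 RPKM to 0.187 and 0.241 (-5.18, adjusted p = 0.037). *Dspp*, the main gene of dentin matrix, fell from 543 and 644 RPKM to 0.145 and 0.174 (-9.00). *Bglap* (osteocalcin) fell from 490 and 397 RPKM to 0.686 and 0.411. *Col1a1*, the most abundant, was at 1067 and 1335 RPKM in Ctrl and 376 and 472 in cKO, and *Col1a2* was the highest at -0.16 (adjusted p = 0.58). *Ibsp* was at 22.4 and 75.6 RPKM in Ctrl CLT and had 0 reads in both cKO CLT libraries. All 7 osteoblast and odontoblast markers of the sums given above are also in this list, so the list and those markers are the same measurement in part.

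*Runx2* therefore lay low in the same libraries in which *Sp7*, *Dspp* and *Bglap* were near 0, while *Runx1* kept 5.52 to 6.82 RPKM there. Between the regions of cKO all 13 genes fell in CLT, as did 45.1% of all genes. In CLH none of the 13 passed and the median was 0.09, and between the Ctrl regions none passed and the median was -0.16.

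The 7 enamel genes, made by ameloblasts, had the largest differences of the lists. All 7 passed as lower in cKO CLT, where 1.75% of all genes passed in either direction. They ran from *Amelx* (-12.31, adjusted p = 0.020) to *Mmp20* (-6.54, adjusted p = 0.020), with a median of -9.46. *Amelx*, the main enamel matrix gene, was at 48798.5 and 18601.5 RPKM in Ctrl CLT against 6.57 and 3.68 in cKO CLT. *Klk4*, a protease of enamel maturation, was at 187 and 206 RPKM in Ctrl CLT, 0.231 and 0.119 in cKO CLT, and 0.886 to 1.65 in CLH. It rose in CLT over CLH in Ctrl (6.27, adjusted p = 0.021), as none of the other 6 did by the test, although all 7 lay above CLH in both Ctrl CLT libraries. *Runx1* and the enamel genes had in common that both Ctrl CLT libraries lay above CLH and both cKO CLT libraries below it, except that *Amtn* overlapped between cKO CLT and cKO CLH. Of all genes, 15.2% lay above CLH in both Ctrl CLT libraries, and 45.1% passed as lower in CLT of cKO. The share of all genes with both traits was not counted, so the pattern is not shown to be particular to these genes.

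The Runx sequence TGTGGT was found in 1 of the 7 enamel windows, that of *Odam*, a share of 14.3% against 16.8% of all windows, and TGTGGTT in none. Of the bone and dentin list, 10 of 14 genes matched with 13 windows, while *Bglap2*, *Col1a1*, *Dspp* and *Sp7* had no window. Of the 13 windows, 4 held TGTGGT (30.8%) and 3 held TGTGGTT (23.1%, against 5.27% of all windows). These shares rest on few windows, and their difference from all windows was not tested. The sites are printed because they belong to genes that had at most 2.01 RPKM in cKO CLT, with the matched letters in capitals and on the strand of the gene.
Bglap: ccgcaatcacctACCACAgcatcctttggg
Dmp1: agtcatttgagAACCACAagagcttttta
Spp1: tttttttttttAACCACAaaaccagagga
Mmp13: attctgccacaAACCACActtaggaagaa
Odam: gggaatccatacACCACAaagatgattagg
They lie at chr3:88384581-88384610 on the minus strand (*Bglap*) and, on the plus strand, at chr5:104202441-104202469 (*Dmp1*), chr5:104434971-104434999 (*Spp1*), chr9:7272384-7272412 (*Mmp13*) and chr5:87884855-87884884 (*Odam*). Their first capital stands 119 bases (*Mmp13*) to 165 bases (*Dmp1*) before the start site. In cKO CLT *Spp1* was at 0.839 and 0.531 RPKM, against 52.2 and 185 in Ctrl CLT, and *Mmp13* was at 0.160 and 0.137 against 31.8 and 232 (-6.25, adjusted p = 0.064). Absence of a match says only that the letters are not in that window.

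Markers of other tissues are given for the same libraries. Of 7 dental epithelium markers in CLT, 5 lay higher and 2 lower in cKO. *Krt17* was highest, at 2.38, and *Krt5* most abundant. The summed level of this list was 805 to 926 RPKM in CLH, 1763 and 958 in Ctrl CLT against 2638 and 3033 in cKO CLT. The 7 mesenchyme markers summed to 1687 to 1806 RPKM in CLH, 1146 and 1962 in Ctrl CLT against 1260 and 1356 in cKO CLT. None passed in CLT, where 5 lay lower and 2 higher in cKO, with a median of -1.26. *Lum* was lowest at -3.15 and *Col3a1* highest at 0.91. Most of the cKO CLT sum was *Col3a1*, at 874 and 979 RPKM against 527 and 456 in Ctrl CLT. All 6 muscle and all 4 matched epidermis markers lay higher in both cKO CLT libraries than in both Ctrl CLT libraries, without passing. Of all genes, 37.2% lay higher in this way.

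*Runx1* and *Runx3* are also expressed in blood cells, so leukocyte markers are given beside them. Their summed level was 49.6 to 59.7 RPKM in CLH, 42.0 and 65.4 in Ctrl CLT against 33.9 and 29.9 in cKO CLT. Of 12 markers, 10 were tested, 8 were lower and 2 higher in cKO CLT, and none passed. The 2 higher were the T cell markers *Cd3e* and *Cd3d*, so the lower sum does not hold for each marker. *Cd3e* was at 0.357 and 0.498 RPKM in Ctrl CLT against 1.44 and 1.53 in cKO CLT. *Cd3d* was at 0.514 and 0.311 against 1.10 and 1.16, while *Cd4* was among the 8 lower. Chondrocyte markers, another setting of *Runx2* and *Runx3*, summed to 37.6 to 39.1 RPKM in CLH, 16.2 and 50.6 in Ctrl CLT against 18.4 and 18.1 in cKO CLT. Endothelial markers summed to 73.2 to 78.6, to 56.8 and 89.4, and to 55.0 and 54.0 RPKM in the same order. Ctrl CLT 1 was close to cKO CLT in the chondrocyte and endothelial sums, and Ctrl CLT 2 lay above CLH. Most of the chondrocyte sum was *Sox9*, at 17.7 and 17.6 RPKM in cKO CLT, so its closeness does not hold for each marker. *Col9a1* was at 0.0275 and 0.00943 RPKM in cKO CLT, with 0.466 for Ctrl CLT 1 and 5.76 for Ctrl CLT 2. *Acan* and *Col2a1* also lay below both Ctrl CLT libraries there, *Sox9* and *Comp* overlapped, and none of these markers passed.

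**Figure D5:**
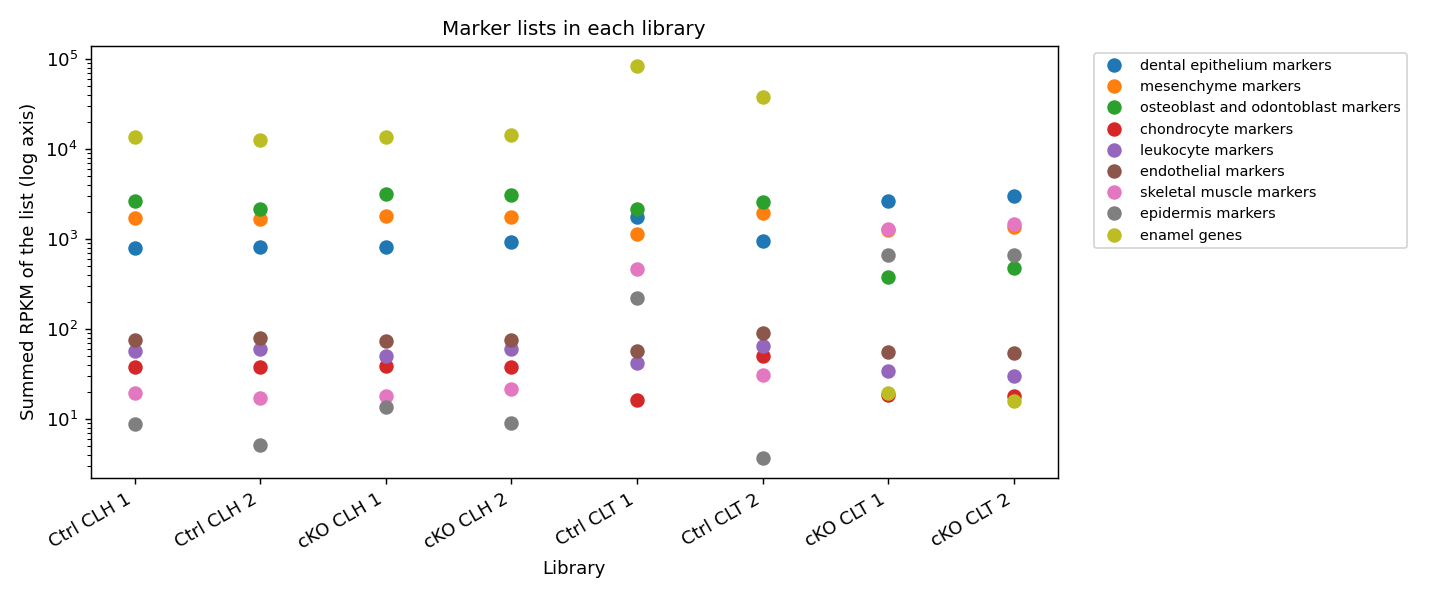
Summed RPKM of each marker list (vertical axis, log scale) in the 8 libraries by group. Muscle and epidermis markers are highest in cKO CLT, followed by Ctrl CLT 1, and osteoblast and odontoblast markers are lowest in cKO CLT.

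The genes whose levels ran most like those of the 4 genes over the 8 libraries are given as a description, since the libraries share groups and cKO CLT stands apart. Among 13951 genes, those nearest to *Runx1* were *Sord* (r = 0.991), *Ndfip1* and *Bcl2l11*. *Sord* was at 40.8 and 35.1 RPKM in Ctrl CLT against 12.05 and 10.9 in cKO CLT, with 19.4 to 20.6 in CLH, the same order of groups as *Runx1*. Nearest to *Runx2* were *Aldh1a3*, *Emcn* and *Gpx8* (r from 0.9969 to 0.9974), and to *Runx3* *Baalc*, *Frzb* and *Hmga2* (r from 0.9986 to 0.999). Nearest to *Cbfb* were *Efha2*, *Tm9sf3* and *Bet1* (r from 0.9965 to 0.9982). *Frzb* was at 4.49 and 23.5 RPKM in Ctrl CLT against 1.32 and 1.05 in cKO CLT, with the wide gap between the Ctrl CLT libraries that *Runx3* had. Most opposite were *Mbp*, *Fanca* and *Paxip1* for *Runx1*, *Sec14l5*, *Mlph* and *Notch1* for *Runx2*, *Lpin3*, *Nccrp1* and *Actn2* for *Runx3*, and *Efcab4a*, *Rmnd5b* and *Plekhm1* for *Cbfb*. *Notch1* was at 13.2 and 6.89 RPKM in Ctrl CLT against 32.0 and 36.1 in cKO CLT.

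The table holds 1 value per gene, so transcripts from the upstream and downstream promoters of a Runx gene cannot be told apart. In the GENCODE M21 annotation, antisense *Gm26626* shares 106 of 12025 exonic bases with *Runx1* and *Runx2os1* shares 519 of 8837 with *Runx2*. The library kit does not mark strand, and reads in those bases cannot be assigned to one of the genes. Exons of *Runx3* and *Cbfb* are shared with no other annotated gene.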

How the data were processed

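RNA from CLH and CLT of Ctrl and *Med1* cKO incisors was sequenced as paired 50-base reads after TruSeq v2 preparation, which does not mark strand. Per the labels and the submitters' processing notes, the authors used FastQC 0.72, Trim Galore 0.4.3.1, STAR 2.6.0b-1 on mm10, featureCounts 1.6.3 and DESeq2 2.11.40.2, and deposited RPKM values per gene and library. The annotation, the strand setting and the total used for RPKM are not given in the sources used here. With the deposited gene lengths, 100.0% of low values came out as whole reads (tolerance 0.01 reads), which gave depth.

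Groups were taken from the labels. The 14148 genes that reached RPKM 1 in 2 or more of the 8 libraries were tested with limma 3.58.1 (R 4.3.3, trended eBayes) on log2(RPKM + 1). Each comparison used its own 4 libraries, and the interaction used all 8, with Benjamini-Hochberg adjustment over all genes and a threshold of 0.05. Fits were tested on simulated data. Alternatives changed the pseudocount, the filter, the scaling, the variance model, the libraries in the fit or the replicate block, used voom on recovered reads, or left out 1 library. The genes and lists were chosen with earlier results of these data known. Named genes were the Runx genes, *Cbfb* and *Med1*; from each list, per comparison, up to 5 genes past the threshold, those with the highest and lowest difference, and the most abundant; and for each Runx gene and *Cbfb* the 3 most alike and 3 most opposite genes. *Stat3*, *Bglap*, *Ibsp*, *Spp1*, *Mmp13* and others beside them were named after their values were seen. Levels of *Kat6a* and *Kat6b* stand under *Myst3* and *Myst4*, and *Flg* was not matched. Some genes that this rule names are not reported here. Windows of promoters came from RefSeq.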

Additional observations from a re-analysis of the deposited data

Results flagged for a closer look

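The genotype difference of *Runx1* differed between the regions, by -1.17 (log2, CLT minus CLH, adjusted p = 0.016 by limma over 8 libraries). Both cKO CLT libraries lay below both Ctrl CLT libraries, while the CLH groups overlapped. The genotype difference of *Runx2* also differed between the regions, by -2.29 (adjusted p = 0.026), and in both regions both cKO libraries lay below both Ctrl libraries. Of all genes, 17.6% passed the same test, which assumes 1 spread for all 4 groups although Ctrl CLT replicates differed most.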

How the results depend on the processing

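Of 312 values for the 4 genes under alternatives, 307 kept their direction. The 5 that turned were *Cbfb* in CLH without Ctrl CLH 2 (0.07) or cKO CLH 2 (0.14), *Cbfb* between the Ctrl regions with median-of-ratios scaling (0.047) or without Ctrl CLT 1 (0.33), and *Runx2* there without Ctrl CLT 1 (0.093). Leaving out 1 library gave -0.17 to 0.14 for *Cbfb* in CLH and, between the Ctrl regions, -0.57 to 0.33 for *Cbfb* and -0.92 to 0.093 for *Runx2*. None of these main values had passed. For cKO against Ctrl in CLT, 0 of the 4 genes passed, 3 did with all 8 libraries in 1 fit, and leaving out 1 library gave 0 to 4. The range was also 0 to 4 between the Ctrl regions and for the interaction, and 3 to 4 between the cKO regions. In CLH 0 passed under every alternative run. The cause was not tested.

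With the replicate number as a block, 2 of the 4 genes (*Runx1*, adjusted p = 0.044, and *Runx2*, 0.027) passed in CLT, with 888 higher and 856 lower genes in all against 11 and 237 without the block. RNA came from 2 litters, but neither the labels nor the methods say that a number marks a litter, so the block is not the main result. Deviations of same-numbered libraries correlated at -0.19 (Ctrl CLT with cKO CLT), 0.066 (Ctrl CLH with cKO CLH), 0.195 (the Ctrl regions), 0.307 (the cKO regions), -0.136 (Ctrl CLH with cKO CLT) and -0.113 (cKO CLH with Ctrl CLT). All-gene calls in CLT were 0 and 35 with no filter on low values, 0 and 0 with voom, 3352 and 2831 with all 8 libraries, and between 0 and 11 and 4445 and 5393 when 1 library was left out. Between the cKO regions, 4084 genes were higher and 6384 lower, and 5270 and 4884 with median-of-ratios scaling. With 2 libraries a group, the spread is poorly known, and *Runx3* in cKO CLT rests on 100 and 137 reads.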
